A study of Mus musculus with 6 samples.

Results

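The platelet-derived growth factor (PDGF) system consists here of 4 ligand genes, Pdgfa, Pdgfb, Pdgfc and Pdgfd, and 2 receptor genes, Pdgfra and Pdgfrb. Members were every probe set that the platform annotation assigned to exactly 1 gene, that gene being one of these 6, which gave 14 probe sets, 9 of ligands and 5 of receptors, among the 18193 genes with a singly named probe set. Whole brains were taken from mouse embryos at stage E18.5 on a C57/bl6 background, 3 wild-type and 3 Foxf2 mutant, and total RNA of each was hybridised to 1 Affymetrix array. The labels do not describe the Foxf2 allele, nor do they say whether embryos shared a litter or were pooled, so p-values measure only the spread between these samples, which may be technical. The mutated gene, Foxf2, codes for a forkhead transcription factor that brain pericytes are known to make, and the comparison asks which transcripts differ in the brain when it is mutated.

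PDGF ligands are secreted dimers that bind receptor tyrosine kinases on the cell surface, where ligand binding joins a pair of receptors and starts phosphorylation. In the developing brain Pdgfb is known as an endothelial ligand and Pdgfrb as the receptor of the pericytes that it recruits to growing capillaries. Pdgfa is known as a ligand made by neurons and astrocytes, and Pdgfra as the receptor of oligodendrocyte precursors and of fibroblasts in the meninges. Pdgfc and Pdgfd carry an extra CUB domain and need proteolytic cleavage before they can bind.

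To show where transcription of these genes begins, the 250 bases before each RefSeq start site were read from a promoter table of build GRCm38.p6. It held 5 windows for 4 of the 6 genes, Pdgfa (2 windows), Pdgfc, Pdgfd and Pdgfra, and not Pdgfb or Pdgfrb. Because the mutated gene encodes a forkhead factor, the windows were searched on both strands for the forkhead core TAAACA, and beside it for the GC box GGGCGG and the TATA box TATAAA. The TATA box ends in the letters TAAA, with which the forkhead core begins, so a match of each could share bases. The forkhead core was in 0 of the 5 windows, against 12% of the 32851 windows in the table. The GC box was in both Pdgfa windows (32.7% of all windows) and the TATA box in the Pdgfd window (12.4% of all windows). The windows of Pdgfa and Pdgfra are printed because these genes form a ligand and receptor pair compared below; capitals mark the GC box, which here reads CCGCCC, its reverse complement. The Pdgfa window lies at chr5:138994945-138995194 on the minus strand and is 72.4% G or C, and the Pdgfra window at chr5:75152001-75152250 on the plus strand and is 54.4% G or C.
Pdgfa: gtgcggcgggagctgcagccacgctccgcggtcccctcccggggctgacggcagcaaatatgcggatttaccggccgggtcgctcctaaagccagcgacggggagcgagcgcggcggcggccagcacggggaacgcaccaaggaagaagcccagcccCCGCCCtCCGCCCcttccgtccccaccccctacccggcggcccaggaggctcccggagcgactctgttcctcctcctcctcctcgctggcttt
Pdgfra: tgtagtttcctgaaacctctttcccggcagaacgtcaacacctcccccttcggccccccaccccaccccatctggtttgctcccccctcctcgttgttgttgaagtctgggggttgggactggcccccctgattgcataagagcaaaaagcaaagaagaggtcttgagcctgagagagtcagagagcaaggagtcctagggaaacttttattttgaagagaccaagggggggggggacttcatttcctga
The Pdgfa window holds 2 GC boxes close together and the Pdgfra window none of the 3 motifs. A match in letters is a description and not a binding site, and the absence of a match concerns these windows alone.

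Over the 6 genes the mutant brains read close to the wild-type brains, and no PDGF ligand or receptor changed past the threshold. Values are the authors' MAS5 intensities, and differences are mutant minus wild type of log2(intensity + 16), tested in limma with Benjamini-Hochberg adjustment over 27022 probe sets above a brightness filter of about 13.2 intensity units. Of the 14 member probe sets 11 passed this filter, and of these 0 were higher and 0 lower at an adjusted p of 0.05, where 0.389% of all tested probe sets were called. At an unadjusted p under 0.05, 2 of the 11 read higher (Pdgfa and Pdgfc, 1 probe set each) and 1 lower (Pdgfrb), beside background shares of 7.76% higher and 5.79% lower. Groups did not overlap in 1 member probe set that read higher (Pdgfc) and in 1 that read lower (Pdgfrb), beside 10.9% and 9.38% of everything tested. Counts of 1 or 2 in 11 are too small to set apart from these shares. The log2 differences of the 11 ran from -0.25 to 0.30 with a median of -0.01, and the median over all tested probe sets was also -0.01, with quartiles of -0.11 and 0.11. The 95% intervals of the members lay between -0.48 and 0.56 on the log2 scale.

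**Figure D1:**
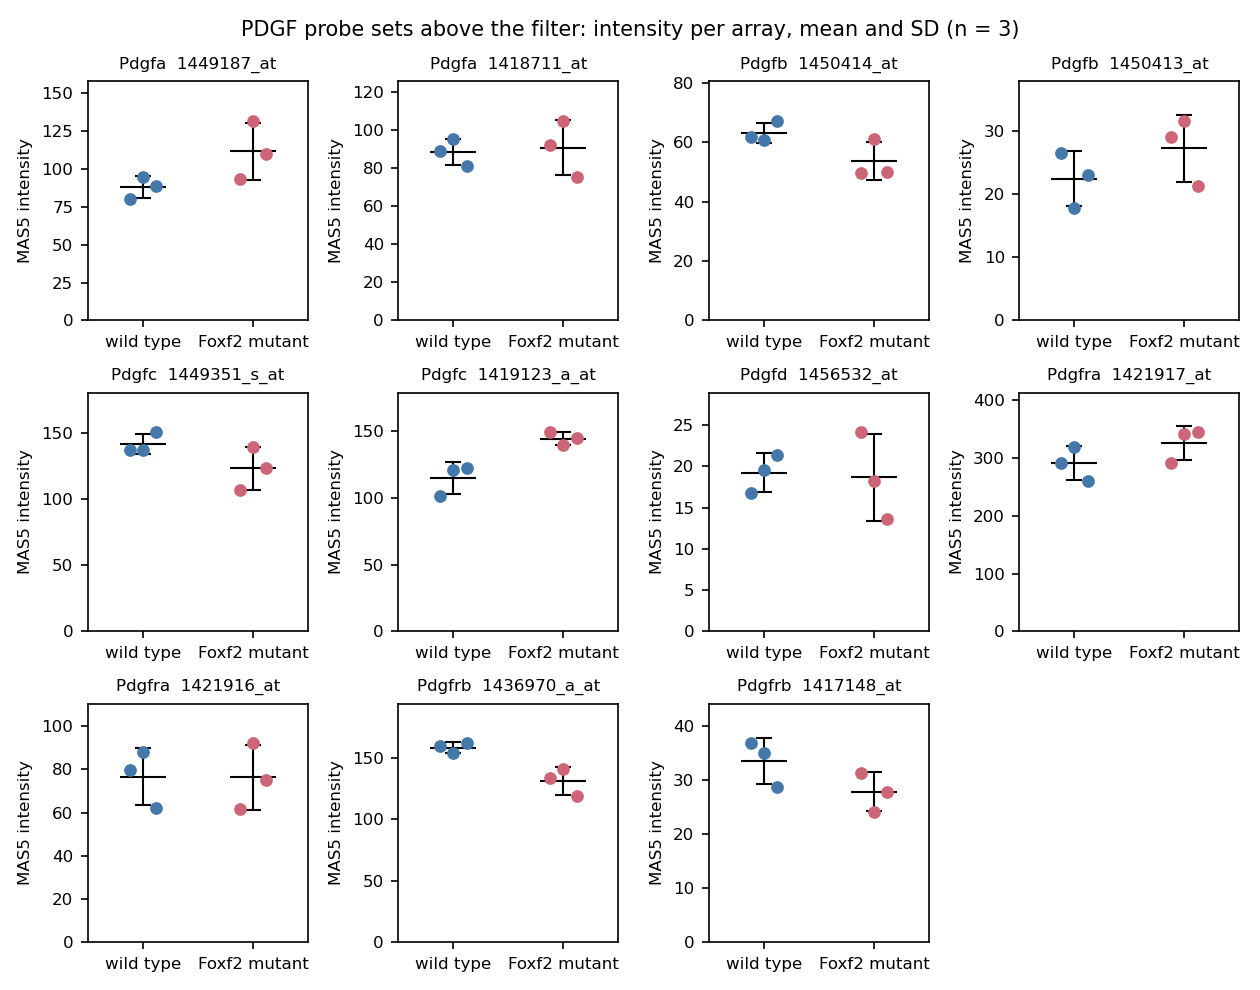
MAS5 intensity (vertical axis, starting at 0) of the 11 PDGF probe sets above the filter in each wild-type (blue) and Foxf2 mutant (red) array, with the group mean and SD (n = 3). The groups are apart in the Pdgfc probe set 1419123_a_at, higher in the mutant, and in the Pdgfrb probe set 1436970_a_at, lower in the mutant, and overlap in the other 9.

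Foxf2 itself was low in every array. Its brighter probe set read 18.6, 24.4 and 13.8 in wild-type arrays 1, 2 and 3 and 8.06, 3.31 and 7.57 in mutant arrays 1, 2 and 3, so all mutant arrays lay below all wild-type arrays (exact two-sided permutation p = 0.1, the smallest that 3 against 3 allows). It was under the filter, and whether it lies in the altered part of the gene is unknown here, which makes it a limited check of the labels. Array medians were 23.1 to 23.6 in wild type and 24.3 to 25.5 in mutant, and correlations across tested probe sets were 0.984 to 0.989 within and 0.977 to 0.987 between groups. Single arrays also differed outside the PDGF system. Skeletal muscle actin Acta1 read 741 in mutant array 3 and 51.1 to 76.97 in wild type. Growth hormone Gh read 1592 in wild-type array 3 and 7.47 and 23.8 in the other wild-type arrays. In mutant array 3 Gh read 203, and 5.63 and 9.57 in the other mutant arrays. The Y-linked Eif2s3y was high, at 260, in mutant array 2 alone.

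Pdgfb, the ligand of the endothelium, was measured by a brighter and a dimmer probe set with differences of opposite sign, neither past the threshold. The brighter, 1450414_at, read 61.6, 60.8 and 67.1 in wild type and 49.7, 61.1 and 50.0 in mutant. Mutant array 2 lay among the wild-type arrays, while mutant arrays 1 and 3 lay below all of them. The means were 63.2 ± 3.38 and 53.6 ± 6.47 (SD, n = 3), which gave a log2 difference of -0.19 ± 0.11 (SE) with an adjusted p of 0.506. The dimmer, 1450413_at, read 26.5, 17.9 and 23.1 in wild type and 29.0, 31.6 and 21.3 in mutant, a log2 difference of 0.17 ± 0.15 (SE; adjusted p = 0.670), which was 0.080 without wild-type array 2, 0.098 without mutant array 2 and 0.27 without mutant array 3. Here mutant array 3 lay within the wild-type range and mutant arrays 1 and 2 above it.

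Pdgfrb, the receptor of pericytes, read lower in the mutant on both of its probe sets, without passing the threshold. The brighter, 1436970_a_at, gave 159, 154 and 162 in wild type and 134, 141 and 119 in mutant. All 3 mutant arrays lay below all 3 wild-type arrays, and the wild-type arrays lay closer together than the mutant ones. The means were 158 ± 4.22 and 131 ± 11.5 (SD, n = 3), which gave a log2 difference of -0.25 ± 0.09 (SE), with a 95% interval of -0.44 to -0.05, an unadjusted p of 0.0198 and an adjusted p of 0.270 in limma. Among all tested probe sets 7.34% had a smaller p. The dimmer, 1417148_at, gave 36.7, 35.0 and 28.7 in wild type and 31.3, 24.1 and 27.8 in mutant, which overlap, and its log2 difference was -0.18 ± 0.13 (SE; adjusted p = 0.601), which was -0.12 without mutant array 2. The difference between the changes of these 2 probe sets was -0.07 ± 0.14 (SE), within the spread of the arrays (exact permutation p = 0.5). In RNA of whole brains, fewer cells of a type and less RNA per cell cannot be told apart.

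Set against each other within arrays, Pdgfb and Pdgfrb did not differ in how they changed beyond the spread of the arrays. The log2 ratio of Pdgfb over Pdgfrb, taken on the brighter probe set of each, was -1.18, -1.14 and -1.10 in wild type and -1.19, -1.03 and -1.03 in mutant; the size of the ratio itself depends on the probes, and only its change is read here. Mutant array 1 lay below all wild-type arrays and mutant arrays 2 and 3 above them. The mutant mean was 0.06 ± 0.06 (SE, n = 3 per group) above the wild-type mean (exact two-sided permutation p = 0.4, adjusted p = 0.4 over the 2 ligand and receptor pairs). The difference was 0.029 without mutant array 3, 0.030 without mutant array 2 and 0.11 without mutant array 1, and 0.020 with quantile normalization. With each gene taken as the mean of its probe sets the difference was 0.20 (exact permutation p = 0.1, the smallest possible), where the dimmer Pdgfb probe set read higher and the dimmer Pdgfrb probe set lower.

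Cells known to make these genes were followed through marker lists. Of 17 pericyte markers above the filter 0 passed, with 7 reading higher and 10 lower and a median log2 difference of -0.05, where the median over all 12573 genes was -0.01. Atp13a5, a pericyte ATPase gene, gave 27.4, 36.6 and 43.7 in wild type and 16.8, 22.1 and 21.6 in mutant, without overlap, at a log2 difference of -0.51 (adjusted p = 0.207). Rgs5, a regulator of G protein signalling in pericytes, gave 549, 822 and 851 in wild type and 564, 616 and 548 in mutant, with overlap (log2 difference -0.33). The potassium channel genes Kcnj8 and Abcc9 had -0.05 and -0.08, Notch3 0.21 and the proteoglycan gene Cspg4, shared by pericytes and oligodendrocyte precursors, -0.15. Zic1 (0.21), Ndufa4l2 (0.27) and Slc6a20a (0.17), named after their values were seen, read higher in the mutant without overlap. Atp13a5 alone read lower without overlap. Of all tested probe sets, 10.9% read higher and 9.38% lower without overlap. The summed level of the 17 was 4159 to 4786 in wild type and 4410 to 4613 in mutant, which overlap. Zic1 was the brightest of them, at 1350 to 1498 in wild type and 1592 to 1802 in mutant, and so weighed most in this sum. The sum without Zic1 was not computed, and whether its signal came from pericytes was not tested. Anpep, Cox4i2 and Des were under the filter. Among smooth muscle markers 0 of 6 passed, where the tropomyosin gene Tpm2 had 0.34 and the myosin light chain gene Myl9 -0.21.

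Of the 15 endothelial markers 0 passed, 7 read higher and 8 lower, and their median was -0.0017. The tight junction gene Cldn5 (-0.43, adjusted p = 0.0622) and the thyroid hormone transporter gene Slco1c1 (-0.75, adjusted p = 0.0652) read lower in all 3 mutant arrays, while Pecam1 had 0.02 and Cdh5 0.29. The summed level of the list was 2229 to 2302 in wild type and 1997 to 2091 in mutant, lower in the mutant without overlap. Cldn5 and Slco1c1 were then left out, after their values were seen. The sum of the other 13 was 1399.7 to 1581 in wild type and 1448 to 1585 in mutant, which overlap. Slc2a1, at 586 to 731 in wild type and 640 to 812 in mutant, was the brightest of these 13. Kdr (-0.41), Tek (-0.26) and Esam (-0.12), named after their values were seen, also read lower in the mutant without overlap. The 7 markers that read higher all overlapped between the groups. Of all tested probe sets, 9.38% read lower without overlap. Cldn5 and Slco1c1 passed the threshold with offset 1, with the filter at the 60th percentile and with the filter set before the variance model, and Slco1c1 also with the replicate number as a block.

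**Figure D2:**
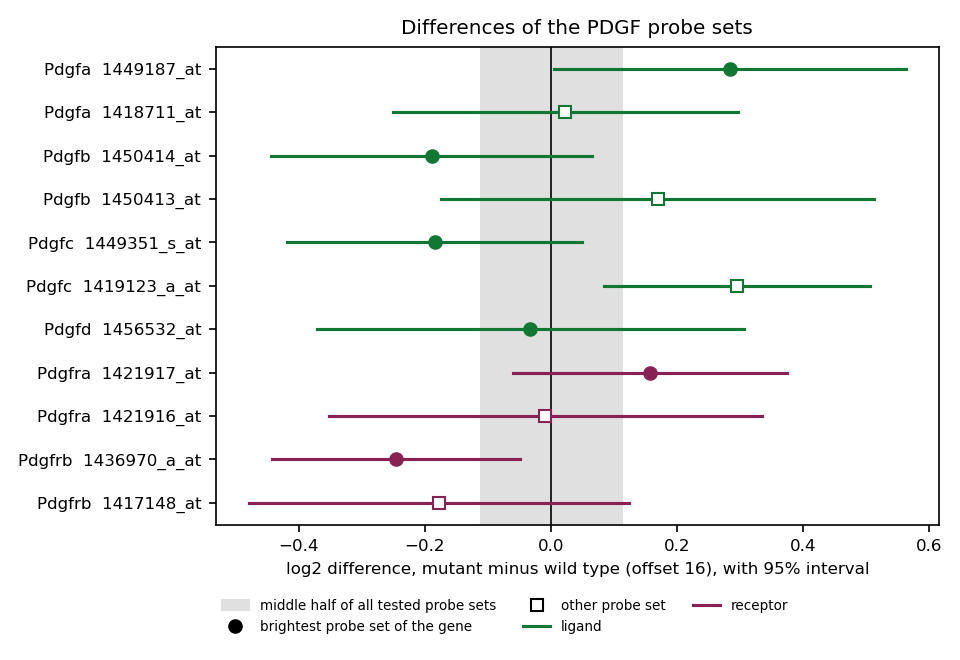
Log2 difference, mutant minus wild type, of each PDGF probe set above the filter (horizontal axis, offset 16), with its 95% interval; filled circles are the brightest probe set of a gene, open squares another, green ligands and purple receptors, and the grey band holds the range between the quartiles of all tested probe sets. Both Pdgfrb probe sets lie below 0, whereas the probe sets of Pdgfb and of Pdgfc lie on both sides of it.

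Pdgfa, the ligand of oligodendrocyte precursors, read higher on its brighter probe set and nearly level on the other. The brighter, 1449187_at, gave 80.4, 94.6 and 89.0 in wild type and 93.2, 131 and 110 in mutant. Mutant arrays 2 and 3 exceeded every wild-type array, and mutant array 1 lay just below wild-type array 2. The means were 88.0 ± 7.16 and 111 ± 19.1 (SD, n = 3), which gave a log2 difference of 0.28 ± 0.12 (SE), with an unadjusted p of 0.0463 and an adjusted p of 0.358. Without mutant array 2, the array with Y-linked signal, the difference was 0.17. The other probe set, 1418711_at, gave 89.0, 95.1 and 81.1 in wild type and 92.0, 104 and 75.4 in mutant, with mutant array 3 lowest of all 6, and its log2 difference was 0.02 ± 0.12 (SE; adjusted p = 0.954), turning to -0.03 with median centring.

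Pdgfra, the receptor of oligodendrocyte precursors, had 3 probe sets. The brightest, 1421917_at, gave 292, 319 and 260 in wild type and 291, 342 and 344 in mutant. Mutant array 1 lay level with wild-type array 1, and mutant arrays 2 and 3 above every wild-type array. The means were 291 ± 29.5 and 326 ± 30.1 (SD, n = 3), which gave a log2 difference of 0.16 ± 0.10 (SE), with a 95% interval of -0.06 to 0.38 and an adjusted p of 0.514. Without wild-type array 3, the array with the highest Gh, this difference was 0.085. Without mutant array 3, the array with high Acta1 and also raised Gh, it was 0.12. The second, 1421916_at, gave 80.0, 88.0 and 62.2 in wild type and 61.9, 92.1 and 75.03 in mutant, a difference of -0.01 ± 0.15 (SE; adjusted p = 0.986). The third, 1438946_at, was under the filter, at 2.15, 11.9 and 8.12 in wild type and 14.6, 14.4 and 12.5 in mutant; the groups did not overlap at these low values (log2 difference 0.37; adjusted p without the filter 0.434).

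Within arrays, Pdgfa and Pdgfra also did not differ in their change beyond the spread. The log2 ratio of Pdgfa over Pdgfra on the brighter probe sets was -1.67, -1.60 and -1.40 in wild type and -1.49, -1.28 and -1.52 in mutant, and the groups overlapped. The mutant mean was 0.13 ± 0.11 (SE, n = 3 per group) above the wild-type mean (exact two-sided permutation p = 0.4, adjusted p = 0.4 over the 2 pairs). Leaving out single arrays gave 0.05 (without mutant array 2) to 0.21 (without wild-type array 3). The 2 pairs read in opposite directions on their brightest probe sets, with Pdgfb and Pdgfrb both lower and Pdgfa and Pdgfra both higher, but none of the 4 passed the threshold. The dimmer tested probe sets did not all follow this pattern, with Pdgfb at 0.17, Pdgfrb at -0.18, Pdgfa at 0.02 and Pdgfra at -0.01.

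**Figure D3:**
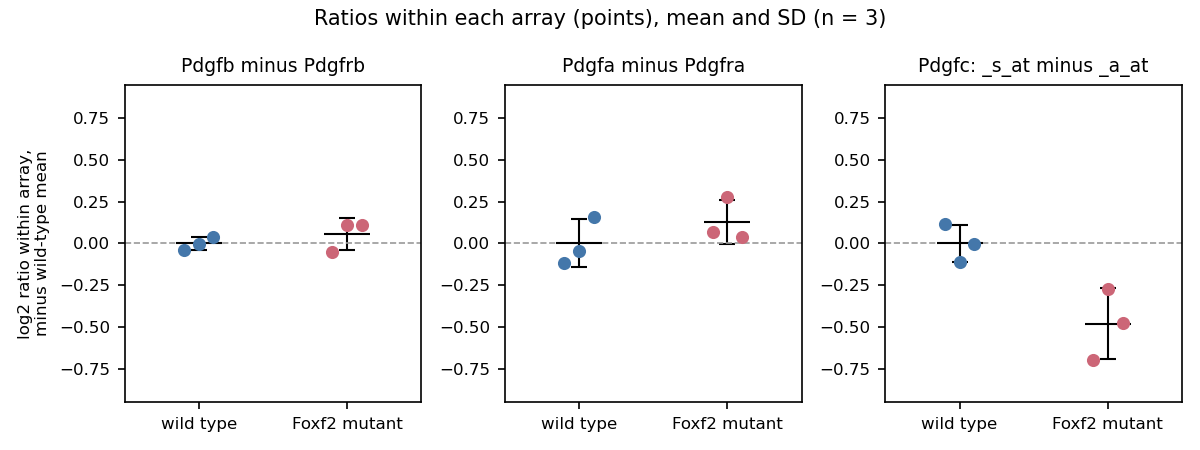
Log2 ratios within each array (points; vertical axis, minus the wild-type mean) of Pdgfb over Pdgfrb, Pdgfa over Pdgfra, and the Pdgfc probe set 1449351_s_at over 1419123_a_at, with the mean and SD (n = 3). The ligand and receptor ratios overlap between the groups, and the ratio of the Pdgfc probe sets is lower in all 3 mutant arrays.

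Oligodendrocyte lineage markers gave no call either. Of 10 precursor markers above the filter 0 passed, 8 read higher and 2 lower, and their median log2 difference was 0.05, where 48.3% of all genes read higher and the quartiles over all genes were -0.10 and 0.11. Nkx2-2, a lineage transcription factor gene named after its values were seen, had -0.21. Cnp, a myelin enzyme gene, had 0.37 and overlapped (279 to 343 in wild type, 301 to 485 in mutant). Sox10, also a lineage transcription factor gene, gave 12.9, 23.8 and 14.6 in wild type and 15.0, 32.1 and 33.1 in mutant (log2 difference 0.35; adjusted p = 0.503), and Olig1 and Olig2 had 0.09 and 0.08. The correlation over 6 arrays with the brightest Pdgfra probe set had a median of 0.60 over the 10 markers and of 0.04 over all genes. It is a description over arrays that may share their scaling, and its values over the markers ran from -0.56 to 0.91. The summed level was 2175 to 2626 in wild type and 2430 to 2813 in mutant, which overlap. Only 2 of 6 genes of mature oligodendrocytes were above the filter, with Mbp at 0.06 and Ugt8a at -0.00014, while Mag, Mog, Mobp and Opalin were under it. Meningeal and perivascular fibroblasts also carry Pdgfra, and 0 of their 10 markers passed, with 8 higher, a median of 0.09, Foxc2 at 0.28 and Col1a1 at 0.26. Their summed level overlapped between the groups (2096 to 2290 and 2089 to 2615).

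The 2 probe sets of Pdgfc had differences of opposite sign, neither past the threshold. The probe set 1419123_a_at gave 101, 121 and 122 in wild type and 149, 139 and 145 in mutant. Every mutant array read above every wild-type array, with means of 115 ± 11.8 and 144 ± 4.85 (SD, n = 3) and a log2 difference of 0.30 ± 0.09 (SE; 95% interval 0.08 to 0.51, unadjusted p = 0.0116, adjusted p = 0.226 in limma). That was the smallest p of any PDGF probe set tested, and 5.12% of all tested probe sets had a smaller one. The probe set 1449351_s_at gave 137, 137 and 150 in wild type and 107, 139 and 123 in mutant. Mutant array 2 lay within the wild-type range and mutant arrays 1 and 3 below it, at a log2 difference of -0.18 ± 0.10 (SE; adjusted p = 0.477), which was -0.097 without mutant array 1. On this platform the suffix _a_at marks probes common to several transcripts of a gene, and _s_at probes that can also match transcripts of other genes. The log2 ratio of the second over the first was 0.38, 0.16 and 0.27 in wild type and -0.43, -0.00047 and -0.20 in mutant, a difference of -0.48 ± 0.14 (SE) without overlap.

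The same ratio was taken for the other genes with 2 tested probe sets, a comparison chosen after the values were seen. It was -0.36 ± 0.12 (SE) for Pdgfb, again without overlap, 0.26 ± 0.15 for Pdgfa, 0.17 ± 0.10 for Pdgfra and -0.07 ± 0.14 for Pdgfrb. The exact permutation p was 0.1, the smallest possible, for Pdgfc and Pdgfb, and 0.25 after adjustment over the 5 genes. Pdgfrb was thus the gene whose probe sets lay closest in their change. Which transcripts the probes of each set match was not analysed here.

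Pdgfd, a ligand of the receptor encoded by Pdgfrb, was near the floor of the array. Its brightest probe set, 1456532_at, gave 16.7, 19.6 and 21.4 in wild type and 24.1, 18.2 and 13.6 in mutant, where mutant array 1 was the highest and mutant array 3 the lowest of the 6. The means were 19.2 ± 2.34 and 18.7 ± 5.25 (SD, n = 3), which gave a log2 difference of -0.03 ± 0.15 (SE; adjusted p = 0.947). The other 2 probe sets were under the filter, with 10.2 to 13.003 in wild type and 6.47 to 12.8 in mutant on 1426319_at, and 0.772 to 5.87 and 0.270 to 6.70 on 1446691_at. A change of Pdgfd was not detectable at these levels.

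The genes that mature, bind and relay PDGF were taken as 5 lists of 56 entries, of which 49 had a singly named probe set and 44 were above the filter. At an adjusted p of 0.05, 0 of the 44 passed in limma, where 0.207% of all genes were called. At an unadjusted p under 0.05 there were 6 (13.6%), 1 higher and 5 lower, against 13.5% of all genes. These 6 leaned to lower, whereas of all tested probe sets 7.76% were higher and 5.79% lower at that p. The median log2 difference of the 44 was -0.01. Among genes that mature or bind the ligands 0 of 7 passed. Plat, tissue plasminogen activator, which is known to cleave the Pdgfc product, gave 214, 242 and 241 in wild type and 281, 269 and 302 in mutant, without overlap (log2 difference 0.27; adjusted p = 0.194). Lrp1, an endocytic receptor that associates with the PDGF receptor of pericytes and smooth muscle, gave 351, 321 and 323 in wild type and 306, 303 and 263 in mutant, also without overlap (log2 difference -0.18; adjusted p = 0.365).

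Among adaptors and enzymes that PDGF receptors recruit 0 of 17 passed, 5 read higher and 12 lower, with a median of -0.03. Pik3ca, the catalytic subunit of phosphoinositide 3-kinase, gave 469, 426 and 454 in wild type and 376, 352 and 366 in mutant, lower in every mutant array (log2 difference -0.29 ± 0.07 SE; adjusted p = 0.112). Pik3r1, a regulatory subunit of the same enzyme, gave 567, 568 and 596 in wild type and 497, 550 and 479 in mutant, again without overlap (-0.18; adjusted p = 0.312). Of 9 genes grouped under receptor attenuation 0 passed. The grouping does not give the sign of each gene's effect. Ptpn11 codes for the phosphatase SHP2, which docks on PDGF receptors and can also promote their signal. It gave 786, 810 and 763 in wild type and 719, 664 and 631 in mutant (-0.22, adjusted p = 0.201). Socs3, a feedback inhibitor of cytokine receptors, had 0.28 with overlapping groups. These genes serve many receptors besides those of PDGF.

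Early response genes that PDGF is known to induce gave 0 past the threshold of 6 above the filter, with a median of -0.03. Ier3 had -0.20 and Srf, a transcription factor gene of the serum response, -0.15. The related class III receptor tyrosine kinases and their ligands gave 0 of 5, with Il34 at 0.11 and Csf1 at -0.08. Markers of the remaining brain cells bore on Pdgfa, which neurons and astrocytes make. Of 8 neuronal markers 0 passed, with a median of -0.03, Map2 at -0.19 and Snap25 at 0.12. Of 8 astrocyte and radial glia markers 1 rose, the intermediate filament gene Vim (log2 difference 0.45, adjusted p = 0.0435) on an _x_at probe set, whose probes can match other transcripts; its other probe sets had -0.03 and 0.21. The Vim call was lost without any 1 of the 6 arrays (adjusted p of 0.0563 to 0.178). The summed level of this list was 6512 to 7191 in wild type and 7372 to 7855 in mutant, higher without overlap. Vim was then left out, after its values were seen. The sum of the other 7 was 5229 to 5989 in wild type and 5676 to 6223 in mutant, which overlap. Fabp7, at 4373 to 4900 in wild type and 4749 to 5067 in mutant, made up most of that sum. Nes, an intermediate filament gene of neural progenitors named after its values were seen, read lower in every mutant array (log2 difference -0.30; adjusted p = 0.207). Of 8 microglial markers 0 passed, with Lyz2 at 0.41 and C1qb at 0.20.

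**Figure D4:**
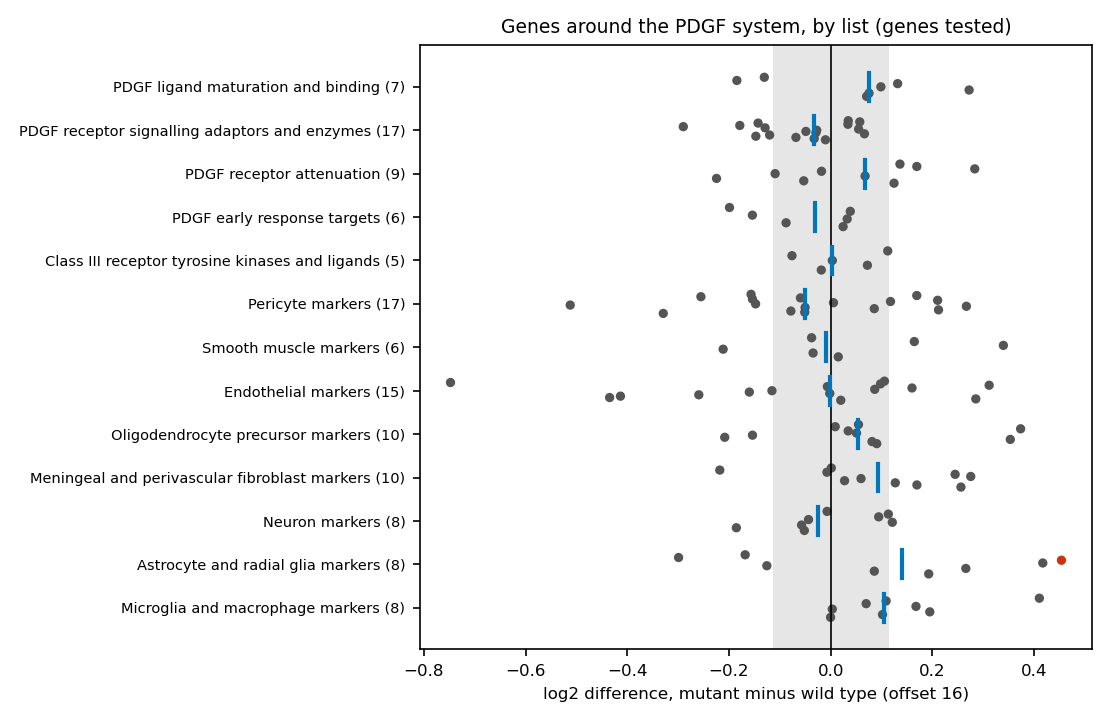
Log2 difference, mutant minus wild type (horizontal axis, offset 16), of each gene in the lists with 5 or more genes above the filter; points are genes, the red point is Vim, the only one past the threshold, blue bars are list medians and the grey band holds the range between the quartiles of all tested probe sets. List medians lie between -0.05 and 0.14.

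The genes whose levels followed each member most closely over the 6 arrays were named by Pearson correlation among 12572 other genes. With 6 arrays, 62 to 259 genes had a correlation above 0.9 with a given member, so the rank is a description. Pdgfrb was followed by Adipor1 (0.996), an adiponectin receptor gene. Adipor1 gave 215, 213 and 216 in wild type and 194, 200 and 181 in mutant, the same order of groups as Pdgfrb. Pdgfb was followed by Tfpt and Nop56 (both 0.992), Pdgfra by Trnp1 (0.995) and the synaptotagmin gene Syt2 (0.988), and Pdgfa by the glycine receptor gene Glrb (0.996) and Tmed10 (0.995). Pdgfc, on its 1449351_s_at probe set, was followed by Pptc7 (0.997) and Noct (0.994), and Pdgfd by Dcdc2a (0.997) and Camsap1 (0.979). None of the genes named here was in a marker or pathway list. The median correlation of Pdgfrb with the 17 pericyte markers was 0.11, and that of Pdgfb with the 15 endothelial markers 0.22, beside medians over all genes of 0.03 for both.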

How the data were processed

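What was deposited are linear MAS5 intensities, per the submitters' processing notes, with the version and genome build not given in the sources used here. The authors' values appear scaled, since the mean of the first array without its lowest and highest 2% of probe sets was 100 after rounding. This mean was not computed for the other arrays. The values were not normalized again, and such scaling hides changes in total RNA. Of 45101 probe sets, 64 controls were left out and 45037 fitted; 34945 had 1 gene symbol, 932 several and 9160 none listed, and only the first are named.

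Analysis used log2(value + 16) in limma 3.58.1 under R 4.3.3 (lmFit, eBayes with trend, two-sided), fitted on all 45037 and adjusted over the 27022 at or above the 40th percentile of mean log2 value. Folds on this scale understate changes of dim genes. A gene was represented by its brightest singly named probe set, 12573 genes being above the filter. Exact permutation tests used scipy 1.17.1. The fit was tested on simulated data. Precision is limited by the number of arrays.

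Named were all member probe sets, Foxf2, in each list the members past the threshold or else the 2 above the filter with the largest absolute difference, fixed lineage markers (Sox10, Olig1, Olig2, Rgs5, Kcnj8, Abcc9, Notch3, Cspg4, Pecam1, Cdh5, Cldn5), and per member the 2 genes most correlated with it (1 of those of Pdgfrb is not reported here); Eif2s3y, Nes, Nkx2-2 and genes under the filter were named after their values were seen. Members and lists were chosen with earlier results of these data known. The lists held 165 entries, 10 of them without a singly named probe set. Muscle and pituitary lists served to describe single arrays: 0 of 3 and 0 of 2 genes above the filter passed, with Myh8 at a log2 difference of 0.99 and Pomc at -0.53. Alternatives varied the offset, filter, normalization, variance model, array weights, sex, replicate block, probe sets and arrays. Sex was assigned from Eif2s3y, which was high in mutant array 2 alone. As a covariate it thus gave the same differences as leaving out that array, and sex could not be told apart from that array.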

Additional observations from a re-analysis of the deposited data

How the results depend on the processing

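No PDGF probe set passed the threshold under any of the alternatives run, with a lowest adjusted p of 0.161 (limma; Pdgfrb with median centring). Of the 11 tested, 8 kept their direction under every alternative that included them. The other 3 lay near 0. Pdgfa 1418711_at turned to -0.031 with median centring and ran from -0.069 to 0.13 without single arrays. The -0.069 was the value without mutant array 2, and sex as a covariate gave the same estimate. Without single arrays, Pdgfd 1456532_at ran from -0.14 to 0.075 and Pdgfra 1421916_at from -0.13 to 0.11. Among genes of all lists, the 1 call (Vim) became 3 with offset 1, 3 with the filter at the 60th percentile and 3 with the filter set before the variance model (chosen after seeing the data), and 2 with the replicate block; it became 0 with no filter, median centring, no variance trend, sex as a covariate or 1 probe set per gene, and 0 without any single array. Both pair comparisons kept their direction under all alternatives run.

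Over all tested probe sets limma called 105, of which 99 were higher and 6 lower in the mutant. It called 181 with offset 1, 64 with offset 64, 52 with no filter, 167 with the filter at the 60th percentile and 56 with median centring. It called 0 without trend or with sex as a covariate, 12 with 1 probe set per gene and 0 to 34 without single arrays. With the filter set before the variance model it called 225, and with the replicate block 220. Wherever calls were made, higher ones outnumbered lower ones. The labels give both groups numbers 1 to 3 but do not say that they pair the samples. Deviations of same-numbered arrays correlated at 0.186, 0.134 and 0.0917, and every array correlated best with its own number, a hint from the data only. Probe sets under about 13 intensity units, among them Foxf2 and most of Pdgfd, were too dim to rank.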
